A study of Saccharomyces cerevisiae and Saccharomyces cerevisiae S288C with 30 samples.

Results

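Splicing of budding yeast (Saccharomyces cerevisiae) mRNA was compared between cells labelled upf1_null and wild-type cells labelled WT. Upf1 is an RNA helicase at the centre of nonsense-mediated decay (NMD), the pathway that degrades mRNAs on which translation stops too early. An intron left in a cytoplasmic mRNA usually brings a stop codon into the reading frame, so unspliced mRNA that leaves the nucleus is a textbook substrate of NMD, and unspliced RPL28 mRNA (also known as CYH2) is the classic yeast example. The measure was PSI, a share from 0 to 1 given with 2 decimals for each splicing event. The sources used here do not define it. Most annotated introns lie low on this scale, so it is read below as the share of transcripts that keep the intron.

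The comparison took in every event of the deposited PSI table with a value in both WT and both upf1_null libraries, which was 382 of 405 events. They comprised 260 annotated introns, 95 introns outside the annotation, 21 events of an alternative 3′ splice site (A3SS), and 6 of an alternative 5′ site (A5SS). For A3SS and A5SS events the sources do not say which form a high PSI stands for. A gene on the same strand was found for 353 of the 382 events, covering 303 genes, 21 events ran antisense to a gene and 8 touched none. All coordinates are on sacCer3.

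The S288C cells of both groups were grown in YPD, a rich medium, to an OD600 between 0.5 and 1. RNA extracted with hot acid phenol, with a quality number of at least 8.8, went into strand-specific TruSeq libraries, whose table columns carry the tag polyA, and these were sequenced together in one HiSeq2000 lane. Each group has 2 libraries, described by the submitters as biological replicates, and another poly(A) group of 2 libraries, dbr1_null, lacks the lariat debranching enzyme and enters the fit for its estimate of spread. The labels name no selection marker or construction for either deletion. UPF1 itself (RefSeq symbol NAM7) has no event in the comparison and PSI does not measure transcript levels, so the deletion could not be checked. Read counts are not part of the values used here, so the depth of each PSI is unknown. The number of events with a value was 384 and 386 in the WT libraries and 394 and 391 in the upf1_null libraries. Replicates differed by a median PSI of 0.02 in WT and 0.01 in upf1_null, but by more than 0.1 at 48 events in WT and 31 in upf1_null.

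Mean PSI was higher in upf1_null at most annotated introns. Their median PSI was 0.212 in WT and 0.278 in upf1_null, and the mean was higher in upf1_null at 203 of the 260 and lower at 41. Taken intron by intron, the annotated set had a median difference of 0.04, against 0.025 over all 382 events and 0 over unannotated introns. Both upf1_null values lay above both WT values at 143 annotated introns and below both at 16. Over all 382 events these counts were 172 (45%) and 24 (6.28%).

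Of the 382 events, 45 rose (11.8%) and 4 fell (1.05%) in limma's moderated test of the log2 odds of PSI, with Benjamini-Hochberg adjustment at 0.05, while the unadjusted p was under 0.05 at 109. Annotated introns supplied 38 of the rises, unannotated introns 6 and A5SS events 1. The difference in PSI was 0.2 or more at 9 of the 45, 0.1 or more at 20 and under 0.05 at 12. The number of calls depended on single libraries: 22 of the 45 rises had an adjusted p of 0.04 or more, and leaving out any 1 of the 6 poly(A) libraries lowered the total of 49 calls to between 16, without upf1_null replicate 2, and 23, without WT replicate 1. With the replicates of every group moved apart by the 0.005 that rounding can hide at each value, 6 rises and 0 falls passed (RPL28, RPL22A, HRB1, BUD25 and IAI11, which are among the 45, and GIM4, named after its values were seen).

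**Figure D1:**
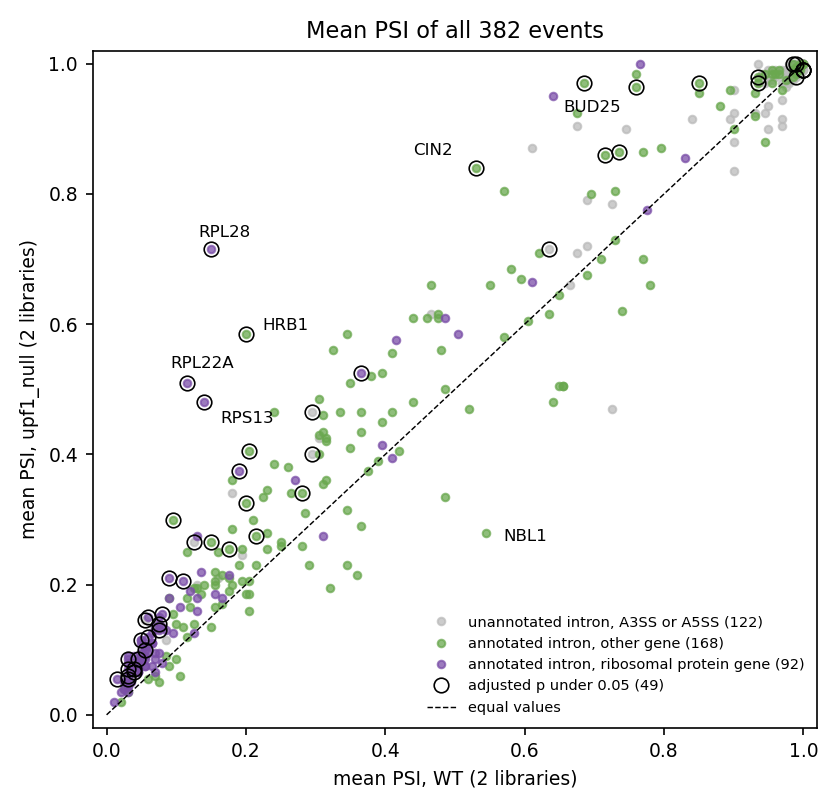
Mean PSI in WT (x axis) against mean PSI in upf1_null (y axis), 1 point per event and 2 libraries per mean, with circles on the 49 events past an adjusted p of 0.05. Most annotated introns lie above the dashed line of equal values, RPL28 farthest from it at 0.15 in WT and 0.715 in upf1_null, while events close to 1 have no room to rise.

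RPL28, a gene of the large ribosomal subunit, showed the largest difference in PSI of all events, although RPL22B, which did not pass, had a larger one in log2 odds. Its intron (chromosome VII, 311016 to 311526, 511 nt, beginning 49 nt into the gene) had PSI of 0.19 and 0.11 in the WT libraries and 0.67 and 0.76 in the upf1_null libraries. The groups were far apart relative to their spread, with a difference of 3.78 log2 odds (SE 0.42, limma adjusted p = 0.0292), although it did not pass when any 1 of the 6 libraries was left out (adjusted p up to 0.131). In the S288c libraries labelled -rap, from which rRNA was removed with Ribo-Zero, the same intron stood at 0.12 and 0.11. Not every rise stood near its WT values there. RPL40B (0.76 and 0.77) and YBR090C (0.98 and 0.94) lay above their upf1_null values, and BUD25 (0.41 and 0.57) below its WT values. The preparation differs, so the -rap values are no check on the WT level.

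RPL22A, whose protein is known to bind RPL22 transcripts and restrain their splicing, was second. PSI at its intron (XII, 263206 to 263594, 389 nt) was 0.12 and 0.11 in WT and 0.44 and 0.58 in upf1_null. The difference was 2.90 log2 odds (SE 0.30, limma adjusted p = 0.0272). The other gene of the pair, RPL22B (VI, 64600 to 64920), read 0.96 and 0.57 in WT and 1 in both upf1_null libraries. Its WT libraries disagreed by more than the groups did, and it did not pass (adjusted p = 0.187).

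RPS13, for a protein of the small subunit, had a long intron (IV, 579479 to 580017, 539 nt) with PSI of 0.18 and 0.1 in WT and 0.46 and 0.5 in upf1_null (2.47 log2 odds, SE 0.41, limma adjusted p = 0.0476). RPL36A (XIII, 651161 to 651623) went from 0.22 and 0.16 to 0.38 and 0.37 (1.33 log2 odds, SE 0.22, limma adjusted p = 0.0476). In both genes every upf1_null value exceeded every WT value.

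These 4 introns belong to a list of 19 genes whose introns are tied to decay or to autoregulation, of which 18 had 22 tested events. In that list 6 events rose and 0 fell, 27.3% against 11.8% of all events, and the median difference was 0.06 against 0.025. The genes were listed with earlier results of these data known, so the share is a description. The other members past the threshold were RPS14A, which moved from 0.03 in both WT libraries to 0.07 in both upf1_null libraries, and the A5SS event of RPL30, the gene of a protein that represses splicing of its own transcript, at 0.63 and 0.64 against 0.72 and 0.71 (limma adjusted p = 0.0469).

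Other autoregulated introns of the list gave no call. The intron of YRA1, for an mRNA export factor that limits its own splicing, read 0.35 and 0.43 in WT and 0.36 and 0.42 in upf1_null (adjusted p = 1). DBP2, for an RNA helicase, stood at 0.02 and 0.03 against 0.05 and 0.03 (adjusted p = 0.338). PTC7, for a phosphatase made from spliced and unspliced mRNA alike, was at 0.91 and 0.95 against 0.91 and 0.93 (adjusted p = 0.751). In each of these the groups overlapped. HAC1, whose intron is removed outside the spliceosome during the unfolded protein response, was at 1 in all 4 libraries, and the annotated GCR1 intron was at 0.99 or 1.

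RPS14B, whose transcript is bound by its own protein, varied more between the WT libraries (0.27 and 0.56) than between the groups (0.54 and 0.61 in upf1_null, adjusted p = 0.49). RPS9A behaved likewise, at 0.12 and 0.42 in WT and 0.35 and 0.37 in upf1_null (adjusted p = 0.943). The annotated RPL30 intron read 0.55 and 0.46 against 0.58 and 0.59, groups that did not overlap without passing (adjusted p = 0.285).

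**Figure D2:**
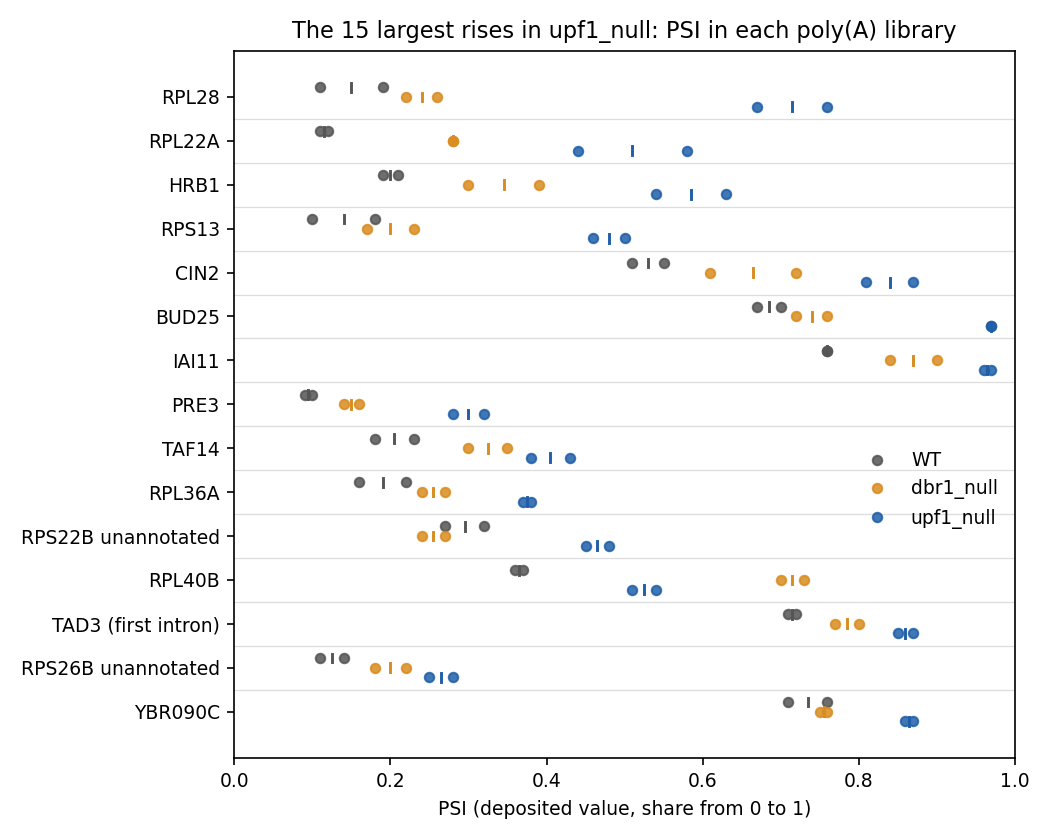
PSI in each library (points) and group means (ticks) for the 15 events with the largest rise in upf1_null, in WT (grey), dbr1_null (orange) and upf1_null (blue), 2 libraries per group. Blue and grey points are separate in all 15, and the orange points of RPL40B lie above the blue ones, at 0.73 and 0.70 against 0.51 and 0.54.

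Ribosomal protein genes are among the most heavily transcribed intron-containing genes of yeast. In the large subunit 15 of 55 annotated introns rose and 0 fell (27.3%). Median PSI over the 55 was 0.06 in WT and 0.105 in upf1_null. Both upf1_null values were above both WT values at 50 of them. In the small subunit 7 of 37 rose and 0 fell (18.9%), and 27 of 37 had both upf1_null values on top. Over all 260 annotated introns 14.6% rose and 55% had both upf1_null values on top. Over all events these shares were 11.8% and 45%. The large- and small-subunit median differences, 0.045 and 0.035, were close to the 0.04 of all annotated introns. In log2 odds the medians were 0.78 and 0.72 against 0.60 over annotated introns. Annotated introns outside ribosomal protein genes rose in 16 of 168 cases (9.52%), with a median difference of 0.04 and 0.46 log2 odds. Their quartiles of 0 and 0.105 were wider apart than the 0.0237 and 0.065 of ribosomal protein introns.

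Apart from RPL28, RPL22A and RPL36A the large-subunit rises were modest in PSI. RPL40B, which encodes ubiquitin fused to a ribosomal protein, had the next largest (XI, 618375 to 618742), with 0.37 and 0.36 in WT and 0.51 and 0.54 in upf1_null (0.92 log2 odds, SE 0.11, limma adjusted p = 0.0308). RPL2A, with the shortest annotated intron of the ribosomal protein genes tested (147 nt), went from 0.1 and 0.08 to 0.19 and 0.23, and its copy RPL2B from 0.05 in both to 0.1 and 0.13. RPL13A moved from 0.06 in both WT libraries to 0.12 in both upf1_null libraries, and RPL13B from 0.12 and 0.1 to 0.19 and 0.22. The remaining large-subunit rises were RPL42A (by 0.09), the stalk protein gene RPP1B (by 0.065), RPL14B (by 0.055), RPL21A (by 0.045), RPL35A (by 0.04), and RPL19B and RPL31B (by 0.03 each).

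In the small subunit, beside RPS13, RPS30A rose from 0.08 in both WT libraries to 0.15 and 0.16, and RPS30B from 0.03 in both to 0.08 and 0.09. RPS10B and RPS14A each rose by 0.04, and RPS23A by 0.025. Rises of that size at PSI near 0.05 rest on few steps of 0.01. RPS14A, RPL19B and RPL31B had identical replicates within both groups, so their adjusted p of 0.000407, 0.00096 and 0.000628 reflect values that rounding had made equal, and became 0.346, 0.488 and 0.44 once the replicates were moved apart within the rounding.

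The ribosomal protein introns that ran against the trend were few. RPL17A had 0.32 and 0.3 in WT and 0.27 and 0.28 in upf1_null, the one annotated intron of a ribosomal protein gene with both upf1_null values below both WT values (adjusted p = 0.362). RPS0A (mean 0.41 against 0.395) and RPS10A (0.07 against 0.065) were lower on average, and RPS0B, RPS23B and ASC1, a ribosome-associated scaffold gene counted with the small subunit, had equal means.

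Most yeast ribosomal protein genes exist as pairs of closely similar coding sequence. Of 40 pairs with 1 annotated intron tested in each copy, both copies rose in 3 (RPL2, RPL13 and RPS30), a single copy in 13 and neither in 24. The pairs with the widest gap between their copies' differences in PSI were RPL22, RPL36 and RPL40. RPL36A rose by 0.185, while RPL36B read a mean of 0.05 in WT and 0.085 in upf1_null. RPL40B rose by 0.16, while RPL40A had 0.075 and 0.095. In RPL19, RPL35 and RPS14 the copy with the larger difference in PSI was not the one that passed: RPS14B differed by 0.16 without a call, while the tightly replicated RPS14A passed on 0.04. In log2 odds, the scale tested, this held for RPL19 but not for the other pairs just named. RPL35A had 1.46 against 1.41 in RPL35B, and RPS14A 1.06 against 0.96 in RPS14B. On that scale the copy without a call was also the larger in RPL14 and RPL22. RPL14A had 1.10 against 0.81 in RPL14B, and RPL22B 4.32 against 2.90 in RPL22A. In RPL27 neither copy passed, although RPL27B differed by 0.145 (0.16 and 0.1 against 0.25 and 0.3, adjusted p = 0.103). Among other copies without a call, mean PSI was higher in upf1_null by 0.05 in RPL14A, 0.075 in RPL19A, 0.015 in RPL21B, 0.01 in RPL31A, 0.06 in RPL35B and 0.045 in RPL42B. A call in a single copy is therefore not shown to be a difference between copies, which was not tested. Reads shared between near-identical exons could move between copies of a pair, depending on how the authors counted them.

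**Figure D3:**
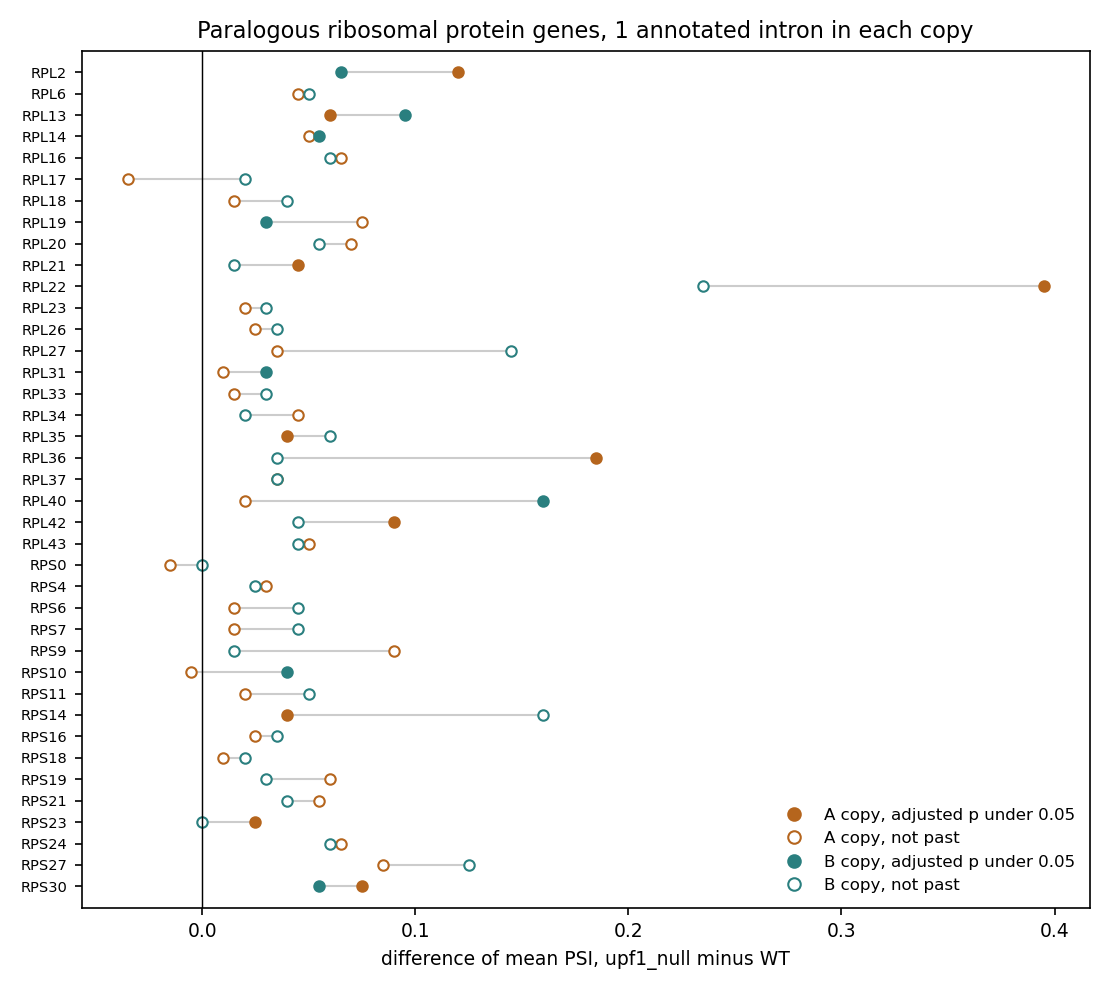
Difference of mean PSI, upf1_null minus WT (x axis), for the A and B copies of 39 of the 40 ribosomal protein gene pairs (rows). Filled points passed an adjusted p of 0.05 (limma, 2 libraries per group). Nearly all points lie right of 0, RPL17A at -0.035 being the lowest, and RPL22A at 0.395 the highest.

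Outside the ribosome, HRB1 had the largest rise in PSI, while BUD25 and IAI11 rose more in log2 odds. It encodes a poly(A) RNA binding protein of the SR type that escorts mRNA out of the nucleus. Its intron (XIV, 622945 to 623286, 342 nt) stood at 0.19 and 0.21 in WT and 0.54 and 0.63 in upf1_null (2.44 log2 odds, SE 0.30, limma adjusted p = 0.035). The S288c libraries labelled -rap, which differ in preparation, gave 0.27 and 0.21. The first intron of TAD3 (XII, 766074 to 766129), a gene for a subunit of a tRNA editing enzyme, rose from 0.72 and 0.71 to 0.87 and 0.85, whereas the second TAD3 intron read 0.83 and 0.63 against 0.69 and 0.77 (adjusted p = 1). The list of splicing, RNA modification and mRNP genes held 21 tested events of 13 genes, of which 2 rose (9.52%, against 11.8% of all events) and 3 fell, each fall by 0.01. Its median difference was 0.005.

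BUD25 had the most secure call. Its intron (V, 184170 to 184677, 508 nt) read 0.7 and 0.67 in WT and 0.97 in both upf1_null libraries (3.52 log2 odds, SE 0.13, limma adjusted p = 0.00148). It was the one event called under each of the 14 alternatives that could be computed for it. RefSeq places HEM14 and FAA2 on the opposite strand over the same interval. The libraries are strand-specific per the labels, but whether the counting used strand is not stated, so reads of those genes cannot be told apart from BUD25 reads with certainty.

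CIN2, a tubulin folding gene, rose from 0.51 and 0.55 to 0.81 and 0.87 at a short intron (XVI, 96154 to 96233, 80 nt; 2.17 log2 odds, SE 0.36, limma adjusted p = 0.0476). BUD25 and CIN2 were the 2 rises among 14 cytoskeleton and polarity events (14.3%, close to the 11.8% of all events and the 14.6% of annotated introns), with 0 falls and a median difference of 0.08. Profilin (PFY1) at 0.1 and 0.13 against 0.24 and 0.26 and cofilin (COF1) at 0.08 and 0.1 against 0.17 and 0.19 had separate groups without passing (adjusted p = 0.0828 and 0.104). Actin (ACT1) was near the floor, at 0.02 and 0.04 against 0.03 and 0.04 (adjusted p = 0.86). In α-tubulin TUB3 the groups overlapped, at 0.05 and 0.12 against 0.08 and 0.1.

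Among 10 events of ubiquitin and proteasome genes 3 rose (30%, against 11.8% of all events and 14.6% of annotated introns) and 0 fell, with a median difference of 0.1. PRE3, which encodes a catalytic subunit of the proteasome, rose from 0.1 and 0.09 to 0.28 and 0.32 (X, 435228 to 435343; 1.93 log2 odds, SE 0.14, limma adjusted p = 0.0116). UBC13, a ubiquitin-conjugating enzyme gene, rose from 0.17 and 0.18 to 0.24 and 0.27, and RPL40B has been described. UBC5 and RUB1 had separate groups (0.47 and 0.48 against 0.63 and 0.6, and 0.23 and 0.29 against 0.37 and 0.39) and did not pass. UBC4, the close relative of UBC5, was at 0.09 in both WT libraries and at 0.07 and 0.08 in upf1_null.

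Of 17 events in secretory pathway genes 2 rose (11.8%, the share of all events) and 0 fell. BET1, a SNARE of vesicles between endoplasmic reticulum and Golgi, rose from 0.21 and 0.19 to 0.35 and 0.3, and ERD2, the receptor that returns resident proteins to the endoplasmic reticulum, from 0.16 and 0.14 to 0.27 and 0.26. ERV1, a sulfhydryl oxidase gene placed in that list by its name although its protein acts in mitochondria, differed more (0.58 and 0.77 against 0.91 and 0.94) without passing (adjusted p = 0.0828). The lists of mitochondrial genes (6 events) and transcription and chromatin genes (9 events) each had 1 rise (16.7% and 11.1%, against 11.8% of all events), and the first also had 1 fall, in YMC1 by 0.01. The rises were IAI11 (II, 110880 to 110948, 0.76 in both WT libraries against 0.96 and 0.97; 2.82 log2 odds, SE 0.30, limma adjusted p = 0.0272) and TAF14, for a subunit shared by TFIID and chromatin remodellers (XVI, 305307 to 305411, 0.23 and 0.18 against 0.43 and 0.38; 1.37 log2 odds, SE 0.23, limma adjusted p = 0.0476).

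MRPL44, for a mitochondrial ribosomal protein, and COX5B, for a cytochrome oxidase subunit, were high in upf1_null without passing. MRPL44 had tight groups, 0.32 and 0.33 against 0.55 and 0.57. The dbr1_null libraries were wider apart (0.34 and 0.47), and its adjusted p of 0.0819 became 0.0182 when WT and upf1_null alone were fitted. COX5B read 0.46 and 0.23 against 0.54 and 0.63 (adjusted p = 0.295).

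Outside the lists, YBR090C (II, 426517 to 426873) went from 0.71 and 0.76 to 0.87 and 0.86 (1.15 log2 odds, SE 0.15, limma adjusted p = 0.038). SCS22, for a protein of contacts between endoplasmic reticulum and plasma membrane, rose by 0.12, KEI1, for a subunit of a sphingolipid synthase, and YPR063C by 0.06 each, and an intron with no protein-coding gene (XV, 912086 to 912432) by 0.015. Among the 5 introns of the meiosis list 1 rose (20%), that of SPO1, for a meiosis-specific phospholipase, by 0.045, and the recombination gene REC107 was at 0.92 and 0.99 against 0.99 in both. In genes of mRNA decay, 4 events of LSM2 and LSM7 were measured, of which 0 rose and 1, in LSM2, fell by 0.01. Of 3 events in the vacuolar ATPase genes VMA9 and VMA10, 0 rose and 0 fell with limma, and the unadjusted p was under 0.05 at 1, VMA10 (0.08 and 0.06 against 0.13 and 0.14).

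**Figure D4:**
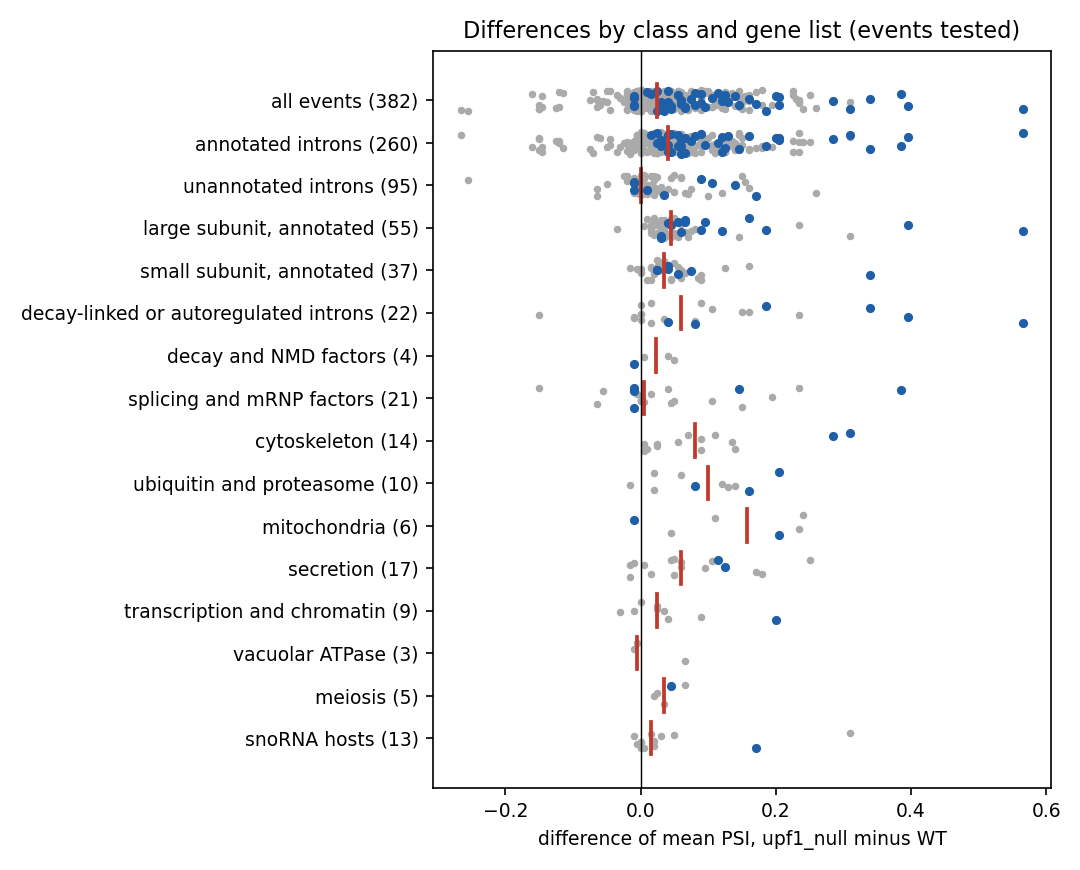
Difference of mean PSI, upf1_null minus WT (x axis), for each tested event by class and gene list, the number of events in brackets. Blue points passed an adjusted p of 0.05, and red bars are medians, 0.04 for annotated introns, 0 for unannotated introns and 0.015 for snoRNA host genes.

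Some introns carry a small nucleolar RNA, which is mostly released from the spliced and debranched intron. RefSeq places a snoRNA inside 8 of the tested annotated introns, in RPS22B, RPL7A, RPL7B, ASC1, TEF4, IMD4, EFB1 and NOG2. Of the 8, 0 passed with limma, and the unadjusted p was under 0.05 at 1. The median difference was 0, and 1 of the 8 had both upf1_null values above both WT values, against 143 of 260 annotated introns (55%), a difference that was not tested. That was the first RPL7A intron, at 0.03 in both WT libraries and 0.04 and 0.05 in upf1_null. The largest spread among them was at RPS22B, 0.42 and 0.37 in WT and 0.47 and 0.36 in upf1_null.

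RPS22B also had an event outside the annotation, beginning 564 nt before the gene (XII, 855878 to 856427, 550 nt), which rose from 0.27 and 0.32 to 0.45 and 0.48 (1.03 log2 odds, SE 0.17, limma adjusted p = 0.0475). Of 7 unannotated introns in small-subunit genes 3 rose (42.9%, against 6.32% of all 95 unannotated introns and 11.8% of all events), the others being RPS26B (V, 423825 to 423951, 0.14 and 0.11 against 0.25 and 0.28; 1.28 log2 odds, SE 0.21, limma adjusted p = 0.0476) and RPS29B (0.06 and 0.05 against 0.14 and 0.15). All 3 of these introns begin before the gene start given by RefSeq. The unannotated introns of RPS29A, RPS8B and RPS25A, which gave no call, begin before it too. RPS29A, at 0.2 and 0.16 against 0.34 in both, did not pass (adjusted p = 0.0931).

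Of 86 unannotated introns elsewhere 3 rose and 3 fell (3.49% rose). Their median PSI was 0.982 in WT, close to the ceiling. The rises were in LDO45, a lipid droplet gene (0.29 and 0.3 against 0.39 and 0.41), before YLL056C (0.93 and 0.94 against 0.97 in both) and antisense to TOS2 (0.99 against 1). The falls were in LSM2, NPL3 and YMC1, each from 1 in both WT libraries to 0.99 in both upf1_null libraries, and an A3SS event of TAN1 fell from 0.99 to 0.98. All 4 falls were by 0.01, a single step of the scale, and 0 of the 4 passed once the replicates were moved apart within the rounding.

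Larger decreases in mean PSI did not pass. NBL1, for a subunit of the chromosomal passenger complex, was the largest, at 0.51 and 0.58 in WT and 0.26 and 0.3 in upf1_null (-1.59 log2 odds, SE 0.36, limma adjusted p = 0.0899), and dbr1_null had 0.54 and 0.68. The second intron of SUS1, for a factor of transcription-coupled mRNA export, was lower at 0.46 and 0.51 against 0.35 and 0.32 (adjusted p = 0.0521), while the first SUS1 intron was at 0.81 and 0.89 against 0.95 and 0.96 (adjusted p = 0.455). Introns of YRF1-3, YRF1-6 and YRF1-7, helicase genes of near-identical subtelomeric repeats whose reads cannot be assigned with certainty, had PSI from 0.57 to 0.74 in WT and of 0.54 and 0.47 in upf1_null without passing. They were named after their values were seen.

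Of the 8 largest differences with separate groups and no call, NBL1 was the one decrease. Beside ERV1, COX5B, MRPL44 and RPL22B, they were the first RPL7B intron (0.39 and 0.89 against 0.95 in both, adjusted p = 0.338), the splicing factor gene YSF3 (0.48 and 0.66 against 0.89 and 0.72) and an unannotated intron antisense to IBA57 (0.74 and 0.48 against 0.79 and 0.95). In RPL7B and RPL22B the WT libraries were 0.5 and 0.39 apart.

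The annotated introns that rose had a median length of 353 nt, and annotated introns without a call 143 nt. The 22 rises in ribosomal protein genes had a median of 398 nt, and the 16 elsewhere 103 nt. Outside ribosomal protein genes, 5 of 33 annotated introns of 200 nt or more rose (15.2%) and 11 of 135 shorter ones (8.15%). Over all annotated introns the share was 14.6%. The median difference was 0.005 in the longer ones and 0.05 in the shorter ones. Both upf1_null values exceeded both WT values at 9 of the 33 and at 57 of the 135. A retained intron whose length is no multiple of 3 shifts the reading frame. Such a multiple was found for 9 of 38 annotated rises (23.7%) and 92 of 260 annotated introns tested (35.4%). HRB1, IAI11 and TAF14 were among the 9. The median difference hardly varied, at 0.04 for multiples of 3 and 0.0425 and 0.04 at remainders of 1 and 2. Both upf1_null values exceeded both WT values at 50%, 57.9% and 57.6% of these introns. The part of the reading frame was not tested. In-frame stop codons were not examined here.

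Counts are also given by distance from the gene start, without a test. Where the intron began within 60 nt of the gene start, both upf1_null values exceeded both WT values in 117 of 181 cases (64.6%). The median difference was 0.05. Where it began farther in, this held for 25 of 77 (32.5%) and the median difference was 0.015. Over all annotated introns the share was 55%, and over all events 45%. Rises by call were 29 of 181 (16.0%) and 8 of 77 (10.4%), against 14.6% of annotated introns and 11.8% of all events. Of the 22 annotated rises in ribosomal protein genes, 19 were in the first set. Distance was not examined apart from membership of those genes.

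Calls and differences in PSI did not go together across WT levels. Over all annotated introns 14.6% rose, and over all events 11.8%. Of 76 annotated introns with WT PSI under 0.1, 17 rose (22.4%), with a median difference of 0.035. Their median length was 400.5 nt, against 150.5 nt over all annotated introns. Of 53 between 0.3 and 0.6, 2 rose (3.77%), although their median difference was larger, at 0.095. From 0.9 upward 2 of 27 rose (7.41%), with a median difference of 0.005. In log2 odds, the scale tested, the medians of these sets were 0.74, 0.59 and 0.30. Between 0.1 and 0.3, 12 of 71 rose (16.9%) with a median of 0.48 log2 odds. Between 0.6 and 0.9, 5 of 33 rose (15.2%) with a median of 0.62.

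Branch-seq, which sequences lariats opened at their branch points, gave a CPM for the gene of 28 of the 38 annotated rises in the authors' deposited table. The median was 0.522 CPM over 14 rises in ribosomal protein genes and 182 CPM over 14 rises elsewhere, against 118 CPM over 181 annotated introns tested. Those 181 mix ribosomal protein genes with others, so the low median is not shown to be particular to the rises. Ribosomal protein introns without a call held values such as 0.0834 CPM in RPL34A and 81.4 in RPS22B. RPL28 had 0.668 CPM, HRB1 0.0834, CIN2 218.8 and PRE3 207.3. The experiment has no replicate. The lengths of these introns differ too, as given above, and the part of length in the CPM was not tested.

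The dbr1_null libraries share growth, kit and lane with the others. Their median PSI at annotated introns was 0.308, above both WT and upf1_null. Whether reads of excised lariats enter PSI is not stated, so a high PSI in these cells need not mean unspliced mRNA. Of the 45 rises, 40 also had a dbr1_null mean above the WT mean, and both comparisons draw on the same 2 WT libraries. Tested directly against dbr1_null over 377 events, 9 were higher in upf1_null (2.39%) and 6 lower (1.59%). Of the 45 rises 7 were among the higher and 1 among the lower, and 37 had both upf1_null values above both dbr1_null values. The rises were picked for high upf1_null values, which by itself raises these counts. The same separation was not counted over all 377 events, so the 37 is a description.

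BUD25, at 0.76 and 0.72 in dbr1_null and 0.97 in both upf1_null libraries, had the largest difference among those 7 (3.14 log2 odds, SE 0.13, limma adjusted p = 0.00247). PRE3 followed in PSI, at 0.14 and 0.16 against 0.28 and 0.32 (limma adjusted p = 0.043), and then KEI1, at 0.25 and 0.27 against 0.34 in both (limma adjusted p = 0.0379). The other 4, RPS14A, RPL19B, RPL31B and the intron antisense to TOS2, exceeded dbr1_null by 0.01 with identical replicates. RPL28, with 0.26 and 0.22 in dbr1_null, was higher in upf1_null by 2.94 log2 odds without passing (adjusted p = 0.0593). RPL22A stood at 0.28 in both dbr1_null libraries, HRB1 at 0.39 and 0.3, and RPS13 at 0.23 and 0.17, each between WT and upf1_null in mean and none past the threshold against dbr1_null (adjusted p = 0.136 each). RPL40B was lower in upf1_null than in dbr1_null (0.51 and 0.54 against 0.73 and 0.7, limma adjusted p = 0.0304).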

How the data were processed

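Per the file headers and labels, the authors deposited PSI as a fraction per event and library, with 2 decimals, and Branch-seq values as CPM in a single column on sacCer2. The submitters' processing notes name TopHat2 2.0.0, Bowtie, Cufflinks 2.2.1 and Cuffdiff with sacCer3 and R64 for the poly(A) libraries, and Bowtie 1.0.0 and SAMtools 0.1.7a for Branch-seq. How PSI was computed is not given in the sources used here. Events were given the protein-coding gene whose RefSeq R64 span, with strand read from the systematic name, overlaps the intron most. PSI was taken to log2((PSI + 0.01)/(1 − PSI + 0.01)), and group means were fitted over the 6 poly(A) libraries with limma 3.58.1 in R 4.3.3, 2-sided, without a replicate block, and adjusted over all events with the values. Fitting was tested on simulated data with the same spread at every event. The real events differ in spread, so that test does not show how the calls behave on them. The 15 largest rises are given by library, other calls and list genes more briefly, and of events without a call the 8 largest differences with separate groups. Lists, members and rules were chosen with earlier results of these data known. Branch-seq CPM was summed over the annotated branch points of a gene and matched by systematic name, so that introns of 1 gene share a value. Where replicates were identical in every group, limma set a minimum spread. No genome sequence was used. The events of 1 gene pair enter the fits and counts but are not reported here.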

Additional observations from a re-analysis of the deposited data

How the results depend on the processing

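The number of events called in upf1_null against WT, 49 (45 rises and 4 falls), stayed within 1.5 times with an offset of 0.05 (47), in annotated introns alone (39) and without events near the limits of PSI (35). It became 32 on untransformed PSI (28 and 4), 30 with trend and robust moderation (26 and 4), 21 when WT and upf1_null alone were fitted (15 and 6), 11 with the replicate block (7 and 4, all among the 49) and 6 with replicates moved apart by the rounding (6 and 0). It was 16 to 23 with 1 library left out, dbr1_null libraries included, and the lone library of a group is then assumed to vary like the others. The 15 events called against dbr1_null became 2 in annotated introns alone, 2 without events near the limits, 3 with the rounding spread, 8 with the replicate block and 8 to 19 with a library left out (8 without upf1_null replicate 1). The cause was not tested. The median difference of annotated introns, 0.04, was 0.045 without events near the limits, 0.0537 as a mean over events and 0.035 to 0.04 with a library left out. None of the events named changed direction with a call. Same-numbered libraries share a number only: their deviations correlated at -0.0967 between WT and upf1_null and at 0.311 between WT and dbr1_null over 377 events. With 2 libraries a group and depth unknown, small differences cannot be resolved.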

Other observations

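Events that rose in upf1_null were also measured in SK1 cells in sporulation medium, with another library preparation, so the levels are given as values and are not compared with the poly(A) libraries. The intron of SPO1, a meiosis-specific phospholipase gene, stood at 0.92 and 0.93 at 0 h, at 0.39 and 0.38 after 3 h and at 0.89 and 0.92 after 12 h. BUD25 read 0.96 and 0.97 after 3 h and 0.54 and 0.55 after 8.5 h. RPS13 read 0.05 and 0.08 after 3 h and 0.65 and 0.54 after 8.5 h, whereas PRE3 was between 0.03 and 0.09 at every time measured. In the libraries labelled dbr1 of that preparation RPL28 stood at 0.88 and 0.91 and HRB1 at 0.98 in both, while PRE3 was at 0.16 and 0.14. These dbr1 values are not read as shares of unspliced mRNA, because whether reads of excised lariats enter PSI is not stated.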
